A study of Mus musculus with 6 samples.

Results

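The cyclin-dependent kinase inhibitors of the Cip/Kip family (Cdkn1a, Cdkn1b, Cdkn1c) and the INK4 family (Cdkn2a, Cdkn2b, Cdkn2c, Cdkn2d) were followed across 6 RNA sequencing libraries of mouse haematopoietic stem cells (HSCs). Members were the rows whose gene symbol is 1 of these 7 names. Of the 7, 5 had a row among the 19086 genes of the table, all 3 Cip/Kip genes and 2 of the 4 INK4 genes. Cdkn2a and Cdkn2b have no row and were not analysed here.

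Cip/Kip proteins bind and inhibit the complexes of cyclins with CDK2 and other kinases, while INK4 proteins bind the monomeric kinases CDK4 and CDK6 and keep the D cyclins from activating them. Both families thereby slow the phosphorylation of the retinoblastoma protein and the entry into S phase. In mouse HSCs the Cip/Kip proteins p57 (Cdkn1c) and p27 (Cdkn1b) are known for keeping the cells quiescent, and p18 (Cdkn2c) for limiting their self-renewal.

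The cells came from bone marrow chimeras. Marrow of CD45.2 donors labelled Zfp521-CKO, in which the zinc finger gene Zfp521 is meant to be lost, or of Zfp521fl/fl donors, the control, was given to lethally irradiated CD45.1 recipients. After 2 months HSCs were sorted by the surface phenotype CD150+ CD48- within LSK (lineage-negative, Sca-1+, Kit+) cells, on the C57BL/6 strain, and each genotype has 3 libraries. The labels give neither the Cre driver, the deleted part of the gene, the age or number of the mice, nor whether a library is 1 recipient or whether host cells were removed, so p-values reflect the spread among the 6 libraries only, and that spread can be technical. The series is titled for HSC quiescence and maintenance under stress, and genes that restrain the cell cycle bear on that question.

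The libraries held 56435472, 30730910 and 3162574 reads in replicates 1, 2 and 3 labelled Zfp521-CKO and 10724405, 7483083 and 7493306 in Zfp521fl/fl replicates 1, 2 and 3. Zfp521 itself had 1519, 126 and 0 reads in libraries labelled Zfp521-CKO, against 0, 3 and 0 in the Zfp521fl/fl libraries. These reads do not show the loss that the label names, and the deleted part of the gene is not given. Whether the labels hold was not tested, so groups are named by label throughout. Of 12 HSC markers, Slamf1 and Procr among them, 0, 1 and 5 had no reads in replicates 1, 2 and 3 labelled Zfp521-CKO, and 7 had none in each Zfp521fl/fl library. These counts are to be read against all 19086 genes. Of those, 16674, 14304 and 6449 had reads in libraries labelled Zfp521-CKO, against 10091, 6134 and 7487 in Zfp521fl/fl replicates 1, 2 and 3. These 12 markers together took 1252, 1338 and 239 RPM (reads per 1000000 recovered reads) in libraries labelled Zfp521-CKO, against 46.7, 1348 and 80.7 in Zfp521fl/fl replicates 1, 2 and 3. Ly6a, the gene of the sort antigen Sca-1, made up 94.4% of that sum in replicate 3 labelled Zfp521-CKO and 92.1% in Zfp521fl/fl replicate 2. Without Ly6a the other markers took 964 (replicate 1), 1094 (replicate 2) and 13.3 RPM (replicate 3) in libraries labelled Zfp521-CKO, against 43.3, 106.5 and 79.9 in the controls. The 15 markers of granulocytes and neutrophils, cells that the sort should remove, took 0.0361%, 1.45% and 12.7% of the reads in libraries labelled Zfp521-CKO, against 15.1%, 12.4% and 13.9% in the controls. The 12 monocyte and macrophage markers took 0.109% to 0.831% in libraries labelled Zfp521-CKO, against 0.312% to 0.770% in the controls. Erythroid, megakaryocyte, B cell, and T and NK cell markers took at most 0.220% in any library labelled Zfp521-CKO and at most 0.295% in any control. In such bulk libraries fewer cells of a type and less RNA per cell cannot be told apart.

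The promoters of 3 members are shown as background for the reasons given next, and no result below was drawn from them. Cdkn2c and Cdkn1b had the group differences farthest above and below 0, and Cdkn1a is a textbook target of p53, whose genes are compared below. Each stretch is the 250 bases before a RefSeq transcript start on GRCm38.p6, a later build than the mm9 named for the data. The windows were chr4:109666757-109667006 on the minus strand for Cdkn2c, the one of its 2 listed starts with GC boxes, chr6:134920151-134920400 on the plus strand for Cdkn1b and chr17:29090729-29090978 on the plus strand for Cdkn1a, the first of its 2 listed starts. Capitals mark the GC box GGGCGG on either strand in Cdkn2c and Cdkn1b. In Cdkn1a they mark a pair of p53 half-site cores, ACATGT, any 4 bases and ACATGT again, which reads alike on both strands.
Cdkn2c: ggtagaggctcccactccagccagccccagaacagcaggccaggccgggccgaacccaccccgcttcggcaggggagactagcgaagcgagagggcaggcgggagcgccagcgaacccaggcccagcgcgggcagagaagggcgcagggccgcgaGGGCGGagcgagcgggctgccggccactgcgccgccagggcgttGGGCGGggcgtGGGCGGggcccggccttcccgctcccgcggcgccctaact
Cdkn1b: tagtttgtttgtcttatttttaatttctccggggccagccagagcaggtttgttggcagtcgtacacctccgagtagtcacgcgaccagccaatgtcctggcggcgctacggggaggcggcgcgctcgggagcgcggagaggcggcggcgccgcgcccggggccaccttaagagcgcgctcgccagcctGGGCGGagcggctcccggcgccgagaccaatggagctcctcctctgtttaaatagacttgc
Cdkn1a: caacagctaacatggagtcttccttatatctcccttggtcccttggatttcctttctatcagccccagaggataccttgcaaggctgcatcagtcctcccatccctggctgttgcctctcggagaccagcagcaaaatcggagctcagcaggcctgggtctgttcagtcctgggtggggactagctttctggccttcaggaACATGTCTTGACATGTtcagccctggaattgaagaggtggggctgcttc
The window of Cdkn2c, picked for its GC boxes, held 3, so a share of all windows is no yardstick for it. Cdkn1b held 1, and 32.7% of the 32851 windows of the same length in the RefSeq table held at least 1. Cdkn2d, whose group difference was -0.13 log2 units, also held 3 in its window. The other start of Cdkn2c held 0, and the other start of Cdkn1a held 2 GC boxes and no p53 core pair. The p53 core pair stood in the Cdkn1a window and in 4 windows (0.0122%) of the table in all, that window included. The Cdkn1a window shown is the one of its listed starts that holds the pair, so this share is no yardstick for it either. Windows were at hand for 6 of the 7 names, and not for Cdkn1c. A match of letters is a description and shows no binding.

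Values of single genes are log2(normalized count + 1) as deposited, where normalized counts are reads scaled by 1 factor for each library, with no division by gene length. Group differences and p-values come from limma fitted to all 16436 genes with a mean normalized count of at least 1, which all 5 members passed. None of the 5 members had a limma adjusted p under 0.05, the threshold for a call. No gene of the 16436 did either (background 0%), while 5.09% were higher and 0.493% lower in libraries labelled Zfp521-CKO at an unadjusted p under 0.05, Cdkn2c among the higher. Across all genes tested the median difference was 1.63 log2 units, higher in libraries labelled Zfp521-CKO. As deposited, the groups did not overlap for Cdkn2c, which was higher in libraries labelled Zfp521-CKO, like 7.17% of all genes tested, and for Cdkn1c, which was lower there, like 2.05%. The values by library are plotted next.

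**Figure D1:**
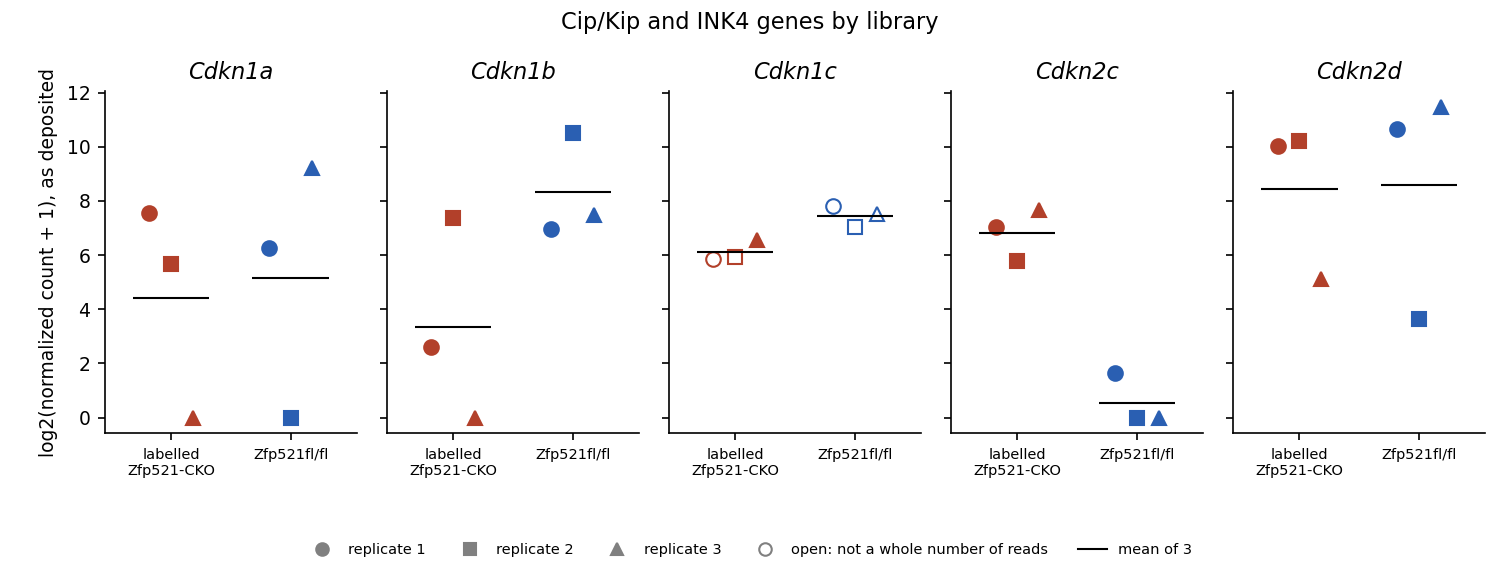
Deposited log2(normalized count + 1) of the 5 inhibitor genes in each library (vertical axis), with the 3 libraries labelled Zfp521-CKO on the left and the 3 Zfp521fl/fl libraries on the right of each panel; symbols are replicates, black lines are means of 3, and open symbols are values that are not whole numbers of reads. Cdkn2c separates the groups, Cdkn1c does so with 5 open symbols, and the other 3 genes overlap.

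Cdkn2c (ENSMUSG00000028551), which encodes the INK4 inhibitor p18, was the member that was higher in every library labelled Zfp521-CKO. Its log2 values were 7.03, 5.77 and 7.68 in replicates 1, 2 and 3 labelled Zfp521-CKO, against 1.64, 0 and 0 in Zfp521fl/fl replicates 1, 2 and 3. All 3 libraries of the first group were high and all 3 controls were at or near 0, with no overlap. The reads behind them were 806, 172 and 42 in libraries labelled Zfp521-CKO, against 2, 0 and 0 in the controls.

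As a rate, Cdkn2c had 14.3 RPM in replicate 1 labelled Zfp521-CKO (95% exact Poisson interval 13.3 to 15.3), 5.6 in replicate 2 (4.79 to 6.50) and 13.3 in replicate 3 (9.57 to 17.95), against 0.186 in Zfp521fl/fl replicate 1 (0.0226 to 0.674). For 0 reads found, a floor of 3 reads was set, which is 0.401 RPM in Zfp521fl/fl replicate 2 and 0.400 in replicate 3. The exact Poisson intervals there reach 0.493 and 0.492 RPM. The lowest of the libraries labelled Zfp521-CKO, replicate 2, was thus at 30.0 times the rate of Zfp521fl/fl replicate 1 (95% exact interval 8.18 to 249.8). Its rate was 13.96 times the floor of 3 reads in Zfp521fl/fl replicate 2 and 13.98 times that in replicate 3. These floor ratios leave out the counting error of its own reads and are not lower bounds. Intervals and floors account for counting error alone, because PCR copies of one molecule are not independent.

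Over the groups, Cdkn2c averaged 6.83 ± 0.97 in libraries labelled Zfp521-CKO and 0.55 ± 0.95 in the Zfp521fl/fl libraries (SD, n = 3 each). The difference of 6.28 log2 units (SE 2.37, limma 95% interval 1.07 to 11.48, not adjusted for the number of genes) exceeded the median of all genes by 4.65 and had a limma adjusted p = 0.61. The SE of 2.37 was moderated by the spread of all genes tested, with a trend of spread over level. Without the trend the SE was 1.53 and the limma adjusted p = 0.28. Differences larger than 6.28 were found for 558 of the 16436 genes (3.39%). Without replicate 3 labelled Zfp521-CKO the difference was 5.85 with a limma adjusted p = 0.025, in a fit that called 15.1% of all genes higher and 0.201% lower. Few reads in the controls were no rarity: 684 genes (4.16%) had at most 3 reads in each control and reads in all 3 libraries labelled Zfp521-CKO.

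The granulocyte markers stand beside Cdkn2c as follows. In replicates 1, 2 and 3 labelled Zfp521-CKO, Cdkn2c had 14.3, 5.6 and 13.3 RPM where these markers took 0.0361%, 1.45% and 12.7% of the reads. In Zfp521fl/fl replicates 1, 2 and 3 it had 0.186, 0 and 0 RPM where they took 15.1%, 12.4% and 13.9%. In replicates 1 and 2 labelled Zfp521-CKO, Cdkn2c was high and the marker share was below that of every control. Replicate 3 labelled Zfp521-CKO had 13.3 RPM at a share of 12.7%. Zfp521fl/fl replicate 2 had 0 RPM at a lower share, 12.4%. The part of these markers in the result was not tested.

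Cdkn2d (ENSMUSG00000096472), which encodes the INK4 inhibitor p19, split the libraries in a way that crossed the genotypes. Its log2 values were 10.03, 10.20 and 5.13 in replicates 1, 2 and 3 labelled Zfp521-CKO, against 10.65, 3.63 and 11.48 in Zfp521fl/fl replicates 1, 2 and 3. Replicate 3 of the first group and replicate 2 of the controls were low, and the other 4 libraries lay at least 4.90 log2 units above both. The reads were 6500, 3769 and 7 in libraries labelled Zfp521-CKO, against 1511, 6 and 1437 in the controls.

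Cdkn2d averaged 8.45 ± 2.88 in libraries labelled Zfp521-CKO and 8.59 ± 4.31 in the controls (SD, n = 3 each), a difference of -0.13 (limma 95% interval -5.37 to 5.11, adjusted p = 0.99). The sign turned with weights per library and with voom, to 0.85 and 1.32. The same 2 libraries were the lowest for 344 of the 3065 genes outside the block described below that had reads in all 6 libraries (11.2%), and with a gap at least that of Cdkn2d for 23 of them (0.75%). Of 2303 named genes with reads in all 6 libraries, Hnrnph1, Ncoa2 and Glrx5 had the values most like those of Cdkn2d, with Pearson's r of 0.998, 0.998 and 0.997 over the 6 libraries. They encode an RNA-binding protein of splicing, a nuclear receptor coactivator and a mitochondrial glutaredoxin. As the highest of many values over 6 points that share library and depth, these are descriptions.

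Cdkn1b (ENSMUSG00000003031), which encodes p27, lay below all controls in replicates 1 and 3 labelled Zfp521-CKO. Its log2 values were 2.62, 7.37 and 0 in replicates 1, 2 and 3 labelled Zfp521-CKO, against 6.97, 10.49 and 7.49 in Zfp521fl/fl replicates 1, 2 and 3. Replicate 2 of the first group lay inside the range of the controls, so the groups overlapped. As a rate, Cdkn1b had 0.567 RPM in replicate 1 labelled Zfp521-CKO (95% exact Poisson interval 0.388 to 0.800). Replicate 2 had 17.2 RPM (15.8 to 18.7), and replicate 3, with 0 reads, had an interval of 0 to 1.17. The controls had 10.9, 101.6 and 12.01 RPM.

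Cdkn1b averaged 3.33 ± 3.74 in libraries labelled Zfp521-CKO and 8.32 ± 1.90 in the controls (SD, n = 3 each). The difference was -4.99 (SE 2.63, limma 95% interval -10.77 to 0.80, adjusted p = 0.61). The interval included 0, which does not show that the groups were alike. Differences further below 0 were found for 68 of the 16436 genes (0.414%). HSC markers other than Ly6a took 964, 1094 and 13.3 RPM in libraries labelled Zfp521-CKO, against 43.3, 106.5 and 79.9 in the controls. Granulocyte markers took 0.0361%, 1.45% and 12.7% of the reads in libraries labelled Zfp521-CKO, against 15.1%, 12.4% and 13.9% in the controls. Both series follow the order of replicates 1, 2 and 3, and Cdkn1b was highest in Zfp521fl/fl replicate 2. The part of these markers in the result was not tested.

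Cdkn1a (ENSMUSG00000023067), which encodes p21, the inhibitor induced by p53, did not separate the genotypes. Its log2 values were 7.57, 5.67 and 0 in replicates 1, 2 and 3 labelled Zfp521-CKO, against 6.25, 0 and 9.21 in Zfp521fl/fl replicates 1, 2 and 3. Each genotype had 1 library without reads, and the highest library was a control with 39.8 RPM. For 0 reads the 95% exact Poisson intervals reach 1.17 RPM in replicate 3 labelled Zfp521-CKO and 0.493 in Zfp521fl/fl replicate 2. The means were 4.41 ± 3.94 and 5.15 ± 4.70 (SD, n = 3 each) in libraries labelled Zfp521-CKO and the controls, and the difference was -0.74 (limma 95% interval -7.67 to 6.19, adjusted p = 0.94). It changed sign when Zfp521fl/fl replicate 3 or replicate 3 labelled Zfp521-CKO was left out, to 1.29 and 1.47.

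Cdkn1c (ENSMUSG00000037664), which encodes p57, looked lower in every library labelled Zfp521-CKO as deposited, but 5 of its 6 values were not whole numbers of reads. Its deposited log2 values were 5.85, 5.91 and 6.55 in replicates 1, 2 and 3 labelled Zfp521-CKO, against 7.81, 7.03 and 7.53 in Zfp521fl/fl replicates 1, 2 and 3. In this form the groups did not overlap, and the spread within each was narrow. Taken as reads, these values were 351.8, 190.3 and 19 in libraries labelled Zfp521-CKO, against 210.8, 68.2 and 92.5 in the controls, where only the 19 of replicate 3 is whole within 0.001 read. Such off-step values made up 213 of the 61139 values above 0, all within 1 block of 75 rows that Cdkn1c belongs to, and 99.7% of the values above 0 were whole reads.

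Each off-step value of Cdkn1c became a whole number of reads, within 0.00001 read, after taking out exactly 1 shift among those searched, which ran up to 7 log2 units in steps of 0.1. The deposited values of Zfp521fl/fl replicates 1, 2 and 3 carried shifts of 2, -4 and 1 log2 units. Those of replicates 1 and 2 labelled Zfp521-CKO carried shifts of -0.2 and 2.5. Without the shifts the reads were 405, 31 and 19 in libraries labelled Zfp521-CKO, against 52, 1099 and 46 in the controls. For replicate 1 labelled Zfp521-CKO a further shift, which would give 1079 reads, was whole only at the looser tolerance of 0.0001 read. Neither the labels nor the column headers mention such shifts, and their origin was not tested.

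Put back on whole reads, Cdkn1c stood at 6.05, 3.41 and 6.55 in libraries labelled Zfp521-CKO, against 5.81, 11.03 and 6.53 in the controls. The groups then overlapped: 2 of the 3 libraries labelled Zfp521-CKO lay above the lowest control, while replicate 2 labelled Zfp521-CKO was the lowest and Zfp521fl/fl replicate 2 the highest library. As a rate this was 7.18, 1.01 and 6.01 RPM in libraries labelled Zfp521-CKO, against 4.85, 146.9 and 6.14 in the controls. The means as deposited were 6.10 ± 0.39 and 7.46 ± 0.40 in libraries labelled Zfp521-CKO and the controls, and 5.34 ± 1.68 and 7.79 ± 2.83 when put back (SD, n = 3 each). The difference was -1.35 as deposited (limma 95% interval -5.78 to 3.07, adjusted p = 0.77) and -2.45 when put back (-7.68 to 2.77, adjusted p = 0.68).

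**Figure D2:**
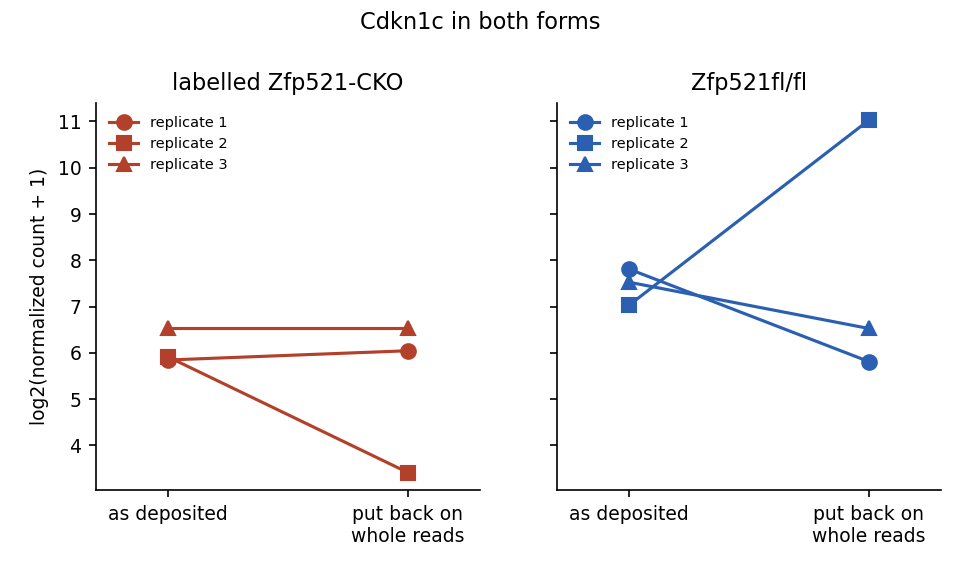
Cdkn1c as log2(normalized count + 1) (vertical axis) in the 3 libraries labelled Zfp521-CKO (left) and the 3 Zfp521fl/fl libraries (right), each as deposited and put back on whole reads, with a line per library. The controls lie between 7.03 and 7.81 as deposited and between 5.81 and 11.03 when put back.

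Off-step values lie in 70 of the 75 genes of the block, so its share of separated genes is no yardstick for Cdkn1c. As deposited, 44 of the 75 (58.7%) had controls above every library labelled Zfp521-CKO. Outside the block this held for 180 of 3065 genes with reads in all 6 libraries (5.87%). How the rows of the block were ordered was not tested. The genes with deposited values most like those of Cdkn1c were the pseudogenes Rps10-ps2, Eif4a-ps4 and Rpl5-ps2, whose reads can be shared with near-identical copies, with Pearson's r of 0.971, 0.968 and 0.967 over the 6 libraries. With Cdkn1c put back on whole reads, r was 0.184, 0.197 and 0.166. Kcnq1ot1 is the noncoding RNA that silences Cdkn1c on the paternal chromosome. It stood at 10.37, 11.70 and 7.15 in libraries labelled Zfp521-CKO, against 10.03, 12.10 and 10.89 in the controls. Its highest value lay in Zfp521fl/fl replicate 2, as did that of Cdkn1c when put back. Other libraries differed in order: at the 11.70 of replicate 2 labelled Zfp521-CKO, Cdkn1c had its lowest value, 3.41. At the lowest Kcnq1ot1 value, 7.15 in replicate 3 labelled Zfp521-CKO, Cdkn1c stood at 6.55.

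Taken as a family, the 5 genes had 158.1, 151.7 and 21.5 RPM in replicates 1, 2 and 3 labelled Zfp521-CKO, against 163.5, 249.2 and 249.7 in Zfp521fl/fl replicates 1, 2 and 3. Every library labelled Zfp521-CKO lay below every control in this sum, which is given without a test. With Cdkn1c as deposited the groups overlapped, since replicate 2 labelled Zfp521-CKO then had 157.0 and Zfp521fl/fl replicate 2 had 112.7. In replicate 1 of each group the sums were close, with exact Poisson intervals that overlap, and replicate 3 labelled Zfp521-CKO, the shallowest library, was far below the rest. INK4 genes gave 129.5, 128.2 and 15.5 RPM in libraries labelled Zfp521-CKO, against 141.1, 0.802 and 191.8 in the controls. Cip/Kip genes gave 28.6, 23.4 and 6.01 RPM in libraries labelled Zfp521-CKO, against 22.4, 248.4 and 57.9 in the controls.

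**Figure D3:**
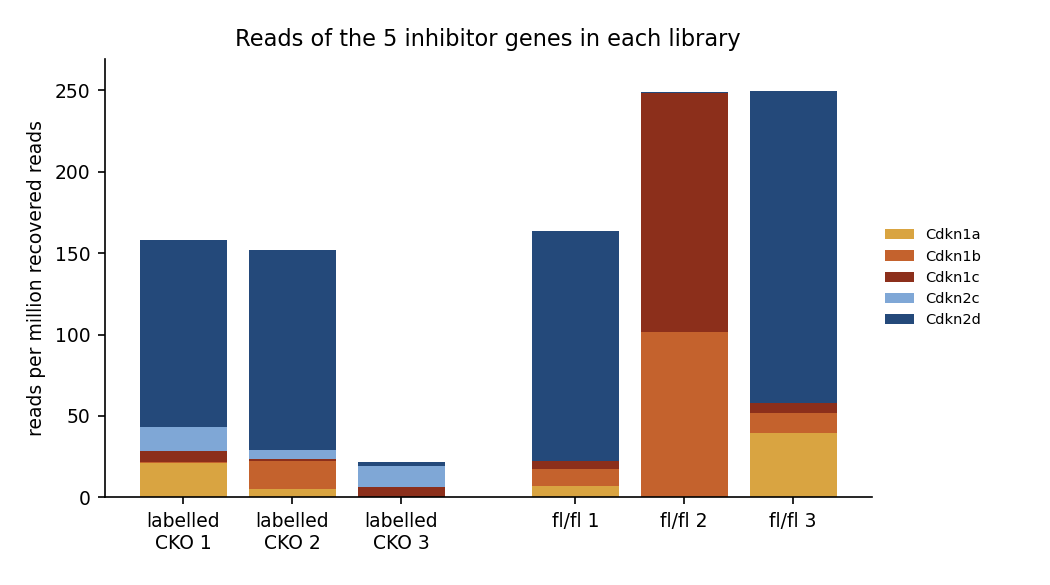
RPM (vertical axis) of the 5 inhibitor genes, stacked by gene, in each library labelled Zfp521-CKO (left) and each Zfp521fl/fl library (right), with Cdkn1c put back on whole reads. Cdkn2d makes up most of 4 bars, and the other 2 bars, the third labelled Zfp521-CKO and the second Zfp521fl/fl library, differ from these and from each other.

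Which inhibitor led differed between libraries more than between genotypes. Cdkn2d took 72.9% (95% exact binomial interval 71.9 to 73.8) and 80.9% (79.7 to 81.98) of the reads of the 5 genes in replicates 1 and 2 labelled Zfp521-CKO, against 86.2% (84.5 to 87.8) and 76.8% (74.8 to 78.7) in Zfp521fl/fl replicates 1 and 3. In replicate 3 labelled Zfp521-CKO, Cdkn2c took 61.8% (49.2 to 73.3) and Cdkn1c 27.9% (17.7 to 40.1), on 68 reads in all. In Zfp521fl/fl replicate 2, Cdkn1c took 58.9% (56.7 to 61.2) and Cdkn1b 40.8% (38.5 to 43.0), while Cdkn2d took 0.322% (0.118 to 0.699).

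Per length the leading member of each library was the same. In RPM per kilobase of exon, by GENCODE M21 lengths, Cdkn2d stood at 73.2 and 77.9 in replicates 1 and 2 labelled Zfp521-CKO, against 89.5 and 121.8 in Zfp521fl/fl replicates 1 and 3, and no other member was above 11.2 in these libraries. The leading member was Cdkn2c at 4.94 in replicate 3 labelled Zfp521-CKO, and Cdkn1c at 72.0 in Zfp521fl/fl replicate 2.

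**Figure D4:**
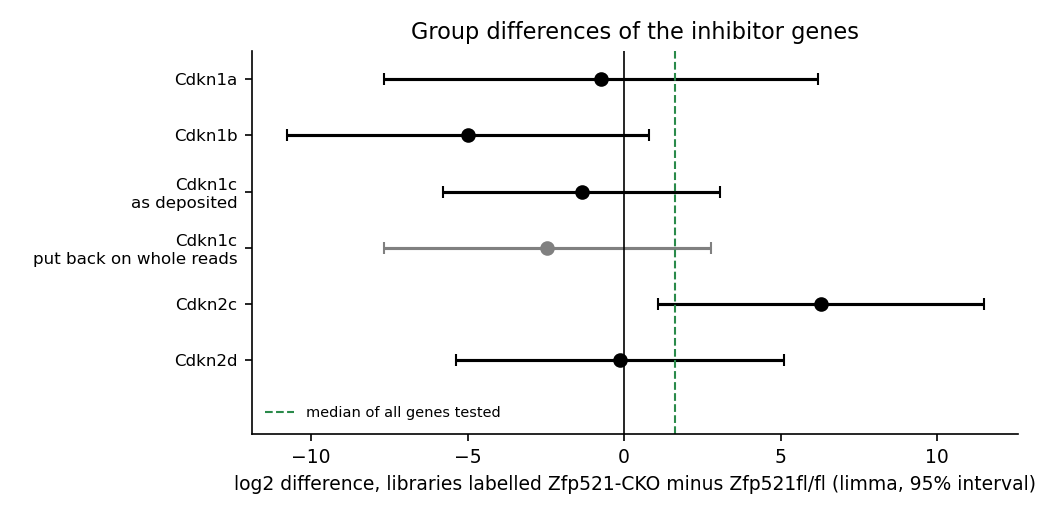
Log2 difference of each inhibitor gene, libraries labelled Zfp521-CKO minus Zfp521fl/fl libraries (horizontal axis, n = 3 each), with limma 95% intervals that are not adjusted for the number of genes; Cdkn1c is shown in both forms. The interval of Cdkn2c lies above 0, the others span 0, and the dashed line is the median of all genes tested, 1.63.

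The partners and regulators of the inhibitors were compared as 8 lists, and no member of any list had a limma adjusted p under 0.05, like 0% of all genes. The next values are therefore descriptions, and the 2 genes named per list are those of the smallest unadjusted p, each with a limma adjusted p = 0.61. List counts and medians are to be read against all genes tested, of which 73.6% had a positive difference, with a median of 1.63. Over the 3140 genes with reads in all 6 libraries 51.0% were positive and the median was 0.03. Genes with no reads in any control, of which several are named next, made up 28.5% of all genes tested.

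Of the 13 cyclins and CDKs that the inhibitors bind, 12 were tested, 10 with a positive difference, and their median was 2.15, or 1.39 over the 6 with reads in all 6 libraries. Ccna2, the S-phase cyclin A2, stood at 10.54, 11.22 and 13.12 in libraries labelled Zfp521-CKO, against 9.74, 0 and 8.52 in the controls. Ccnd1, cyclin D1, stood at 10.08, 11.23 and 11.37, against 8.27, 7.10 and 9.26 as deposited, with 4 off-step values, and its groups overlapped when put back. The INK4 targets Cdk4 and Cdk6 overlapped between the groups. Cdk4 was at 12.84, 11.39 and 5.89 in libraries labelled Zfp521-CKO, against 9.24, 4.88 and 12.19 in the controls.

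All 13 genes of the retinoblastoma and E2F list had a positive difference, with a median of 2.92, or 3.44 over the 2 with reads in all 6 libraries. E2f5 stood at 7.16, 6.85 and 7.81 in libraries labelled Zfp521-CKO, and E2f3, an activating E2F, at 5.64, 5.61 and 10.18, while both had no reads in any control. Of the 16 proliferation markers, 10 had a positive and 6 a negative difference, with a median of 1.60, the same over the 6 with reads in all 6 libraries. Tyms, the thymidylate synthase, was at 11.35, 8.27 and 10.20 in libraries labelled Zfp521-CKO, against 3.54, 2.74 and 0 in the controls. Pcna, the sliding clamp of replication, was at 12.63, 11.53 and 10.04, against 10.45, 0 and 7.42. Mki67, the antigen Ki-67 of cycling cells, was at 9.48, 9.61 and 12.97, against 12.31, 5.48 and 9.52, and overlapped.

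Of the 18 genes of the p53 list, 17 were tested and all 17 had a positive difference, with a median of 2.24, or 1.63 over the 3 with reads in all 6 libraries. Trp53 itself was at 11.30, 9.87 and 0 in libraries labelled Zfp521-CKO, against 3.66, 2.26 and 8.52 in the controls. Mdm2, the ligase that degrades p53, was at 8.0, 0 and 9.88 and had no reads in the controls. Aen, a p53-induced exonuclease, was at 9.36, 9.75 and 6.69, against 3.08, 2.26 and 0. Their order across libraries was not that of Cdkn1a, whose highest value was in Zfp521fl/fl replicate 3.

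Of the 12 genes that turn over Cip/Kip proteins, 7 had a positive and 5 a negative difference, with a median of 0.60, and the 5 with reads in all 6 libraries had a median of -0.53. Cul1, the scaffold of the SCF ligase that degrades p27, was at 9.48, 7.49 and 0 in libraries labelled Zfp521-CKO, against 9.64, 11.63 and 9.97 in the controls, without overlap. Cul4a, the scaffold of another ligase, was at 7.86, 6.95 and 6.47, against 5.78, 0 and 0. Skp2, the subunit that recognises p27, was at 4.53, 3.72 and 0 and had no reads in the controls.

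Of the 15 Polycomb genes and other repressors of the Cdkn2a-Cdkn2b locus, 13 had a positive difference, with a median of 2.49, and none had reads in all 6 libraries. Ezh2, a histone methyltransferase, was at 7.23, 9.27 and 10.85 in libraries labelled Zfp521-CKO, against 4.78, 0 and 0 in the controls. Cbx7 was at 5.22, 8.71 and 3.96 and had no reads in the controls. Of the 12 TGF-beta and FoxO regulators, 10 had a positive difference, with a median of 2.65, and 1 had reads in all 6 libraries. Tgfb1, a ligand that induces Cip/Kip and INK4 genes, was at 7.01, 8.58 and 9.10, against 1.64, 3.63 and 0, and Tgfbr2, its receptor, at 4.78, 6.78 and 0, with no reads in the controls.

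Of 16 imprinted genes, among them the neighbours of Cdkn1c, 10 had a row and 9 were tested, of which 7 had a positive difference, with a median of 4.51, and the 2 with reads in all 6 libraries had a median of 1.75. Ndn was at 8.66, 4.76 and 3.96 in libraries labelled Zfp521-CKO and had no reads in the controls. Cd81, a neighbour of Cdkn1c, was at 12.58, 11.34 and 8.42, against 11.24, 2.74 and 4.08.

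**Figure D5:**
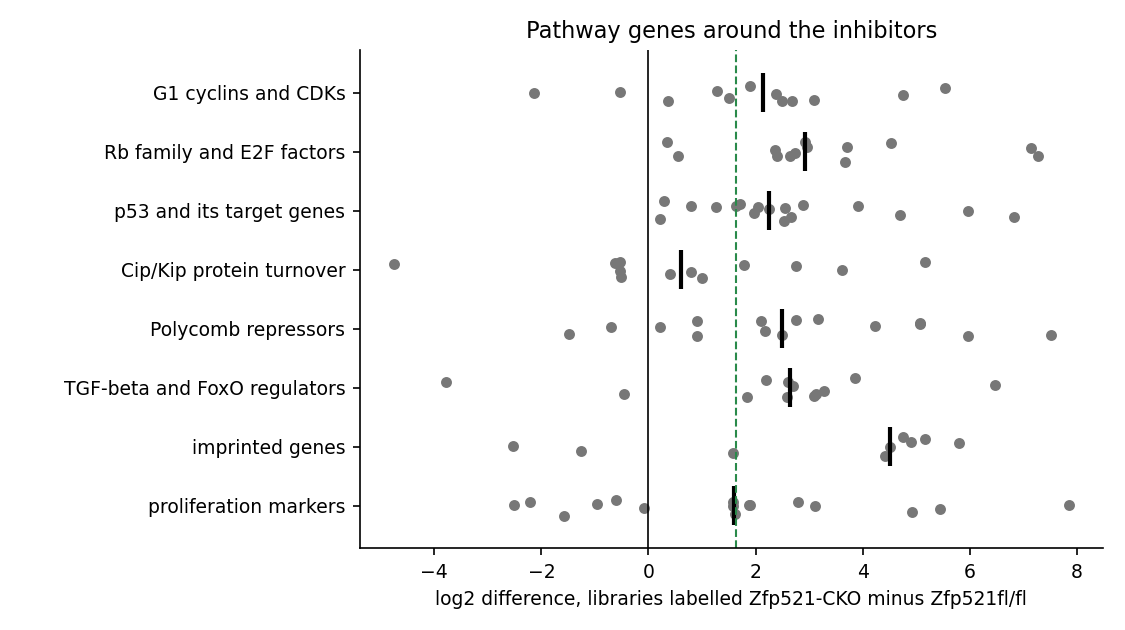
Log2 difference, libraries labelled Zfp521-CKO minus Zfp521fl/fl libraries (horizontal axis), of each gene tested in the 8 lists around the inhibitors; points are genes, thick black ticks are list medians and the dashed line is the median of all genes tested, 1.63. List medians run between 0.60 for Cip/Kip turnover and 4.51 for imprinted genes, and no gene passed the test.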

How the data were processed

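Sorted HSCs gave total RNA for Illumina sequencing libraries, per the labels' protocols. Bowtie, DESeq2 1.26.0 and the build mm9 are listed, without a role, in the submitters' processing notes. The read counter, strand setting and annotation: not given in the sources used here. Values deposited by the authors are log2 values, although the table is named for FPKM: 2 to the power of a value, minus 1, is a whole multiple of 1 step per library, so the values are log2(count divided by a factor, plus 1). Reads were recovered with these steps, at a tolerance of 0.001 read. Off-step values were put back on whole reads by searching shifts of whole log2 units up to 7, then in steps of 0.1, at 0.0001 read. The members and lists were chosen with earlier results of these data known.

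limma 3.58.1 in R 4.3.3 (lmFit, eBayes with a trend, two-sided) was fitted to the deposited values of all 6 libraries with genotype only, for genes with a mean normalized count of at least 1, with Benjamini-Hochberg adjustment over 16436 genes and a threshold of 0.05. A log2 difference of low genes depends on the pseudocount of 1 in the values. The fit was tested on simulated counts that lacked the differences in composition between these libraries. That test does not give its error rates here. Members were found by symbol, and list genes by symbol or older name, 163 of 187 entries with a row. Named were the 7 members, Zfp521, the 2 list genes of the smallest p, 10 fixed partners where discussed, and the 3 genes most alike in Pearson's r. Poisson and binomial intervals are exact. Alternatives covered scaling, pseudocount, filter, off-step values, weights, voom, trend, thinned reads, the replicate block and leaving out each library.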

Additional observations from a re-analysis of the deposited data

How the results depend on the processing

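Of 16436 genes, 0 were called in the fit given above, 17 with quantile normalization (5 higher, 12 lower), 1660 with weights per library (1632 higher, 28 lower) and 164 with voom on recovered reads (150 higher, 14 lower). Leaving out 1 library gave 0 to 2509, where 2509 came without replicate 3 labelled Zfp521-CKO and the other 5 gave 0. The cause was not tested. The median of all genes was 1.63, against 0.91 at a total of 1000000 per library, 0.22 with quantile normalization, 2.54 with a pseudocount of 0.1, 0.65 without replicate 1 and 2.63 without replicate 3 labelled Zfp521-CKO. Cdkn2c was above 0 in all 19 alternatives (3.30 to 8.64), and 5.85 to 6.83 with 1 library left out, where the adjusted p ran from 0.025 to 0.75. Its limma adjusted p was 0.057 with weights per library and 0.090 with voom, in the fits that called 1660 and 164 genes. Cdkn1b and Cdkn1c stayed below 0 in all 19 and 18 alternatives (-7.01 to -2.64 and -3.57 to -0.98), and Cdkn1c has no value without the rows of the block. Cdkn1a turned to 0.069 with weights per library, and Cdkn2d to 0.85 with weights and 1.32 with voom. With 1 library left out they ran from -3.32 to 1.47 and from -2.61 to 1.53, above 0 without Zfp521fl/fl replicate 3 (1.29 and 1.31) or replicate 3 labelled Zfp521-CKO (1.47 and 1.53), and for Cdkn2d without Zfp521fl/fl replicate 1 (0.90). No adjusted p of these 4 genes was under 0.31. Counted from the values as deposited, the 5 genes summed to 157.0 RPM in replicate 2 labelled Zfp521-CKO, against 178.9 and 112.7 in Zfp521fl/fl replicates 1 and 2. Whether replicate numbers pair the libraries cannot be told from correlations of same-numbered deviations. These were 0.12, -0.003 and -0.030 over 3065 genes, and the 0.12 of replicate 1 was the highest of any pair across the groups. With the replicate block 0 genes were called, 948 at an unadjusted p under 0.05, and Cdkn2c had an adjusted p = 0.65. Depth limits replicate 3 labelled Zfp521-CKO most, where 3 reads are a log2 value of 3.96, against 0.57 in replicate 1.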
